A study of Mus musculus with 4 samples.

Results

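The nuclear genes Tfam, Tfb1m, Tfb2m, Polrmt, Polg, Polg2, Ssbp1 and Lrpprc encode proteins that copy, package and transcribe mitochondrial DNA or protect its transcripts. They were taken by name as classical targets of nuclear respiratory factor 1 (Nrf1), by a rule that uses no measured value, although earlier results of these data were known when the list was made. All 8 were among the 24062 genes of the count table, and all 8 were among the 15762 genes that had enough reads to be tested. RNA was sequenced from whole embryonic retinas at E13.5, from wild type (WT) embryos and from Nrf1-CKO embryos, with 2 libraries per genotype and a pool of retinas from several littermates in each. All embryos were of a mixed C57BL/6 and 129 strain. The mutant retinas were Nrf1 f/f;Six3-Cre, in which Cre is made in retinal progenitor cells from the central retina outwards and removes a single floxed exon of Nrf1. The series text also writes this genotype as Nrf1-/-, but the deletion was conditional, and cells of the eye in which Six3-Cre is not active keep the gene. Libraries contained from 74577660 to 85933945 reads counted on genes.

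Mitochondrial DNA is a small circular genome that encodes core subunits of the respiratory chain together with the ribosomal and transfer RNAs needed to translate them. Every protein that replicates or transcribes it is made in the cytosol from a nuclear gene and imported. Tfam bends and coats the DNA and, with Tfb2m, brings the RNA polymerase Polrmt to the promoters. Polg and its accessory subunit Polg2 form the replicative polymerase, Ssbp1 coats the displaced single strand, and Lrpprc stabilizes the finished messenger RNAs. In cultured cells, Nrf1 and the ETS factor GABPA, also called NRF-2, are known to bind the promoters of several of these genes.

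Promoter sequences from RefSeq on GRCm38.p6, running from 250 bases before to 50 bases after the start site, were available for all 8 genes. They were searched for an NRF1 core, GCGCATGCG or GCGCACGCG on either strand, and for a GABPA or ETS core, CCGGAAG on either strand. Matches to the NRF1 core may overlap each other because it is partly palindromic. Tfam, Tfb2m and Polrmt are shown because they differ in the cores they hold, with the matching bases in capitals. The window of Tfam is chr10:71237995-71238294 (minus strand), that of Tfb2m is chr1:179546227-179546526 (minus strand) and that of Polrmt is chr10:79746532-79746831 (minus strand).
Tfam: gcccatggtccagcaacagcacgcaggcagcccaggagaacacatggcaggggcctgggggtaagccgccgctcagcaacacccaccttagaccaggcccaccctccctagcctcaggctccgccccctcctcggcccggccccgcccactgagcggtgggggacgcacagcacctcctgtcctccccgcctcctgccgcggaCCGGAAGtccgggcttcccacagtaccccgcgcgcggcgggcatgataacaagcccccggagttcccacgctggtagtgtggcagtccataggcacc
Tfb2m: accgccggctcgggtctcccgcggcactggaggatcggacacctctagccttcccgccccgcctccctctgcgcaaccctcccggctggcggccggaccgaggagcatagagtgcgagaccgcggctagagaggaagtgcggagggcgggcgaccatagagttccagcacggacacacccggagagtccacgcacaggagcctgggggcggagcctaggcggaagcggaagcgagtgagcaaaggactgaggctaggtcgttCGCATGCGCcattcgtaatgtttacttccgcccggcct
Polrmt: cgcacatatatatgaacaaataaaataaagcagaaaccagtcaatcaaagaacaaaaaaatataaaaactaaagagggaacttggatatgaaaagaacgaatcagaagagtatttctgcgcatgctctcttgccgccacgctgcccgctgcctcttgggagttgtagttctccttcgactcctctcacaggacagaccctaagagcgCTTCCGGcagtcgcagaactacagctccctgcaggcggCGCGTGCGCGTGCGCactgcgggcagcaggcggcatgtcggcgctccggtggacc
In the Tfam window the capitals mark a single ETS core that begins at position -47, counted from the start site. In Tfb2m they mark 1 NRF1 core that begins at position 13. Polrmt held an ETS core at position -43 and a pair of overlapping NRF1 cores that begin at positions -5 and 2, across the start site itself.

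Of the 8 genes, 2 held an NRF1 core (Tfb2m and Polrmt), against 3.36% of all 32851 promoters in the table. An ETS core was present in 5 (Tfam, Polrmt, Polg, Polg2 and Ssbp1), against 8.86% of all promoters, and its first base lay between positions -47 and -29 in each of them. Tfb1m and Lrpprc held neither. The windows were rich in CpG, with 16 to 32 CpG dinucleotides each, whereas the median over all promoters was 7. These matches describe letters in a window. They do not show binding, and a window without a match says nothing about whether the factor binds elsewhere in the gene.

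**Figure D1:**
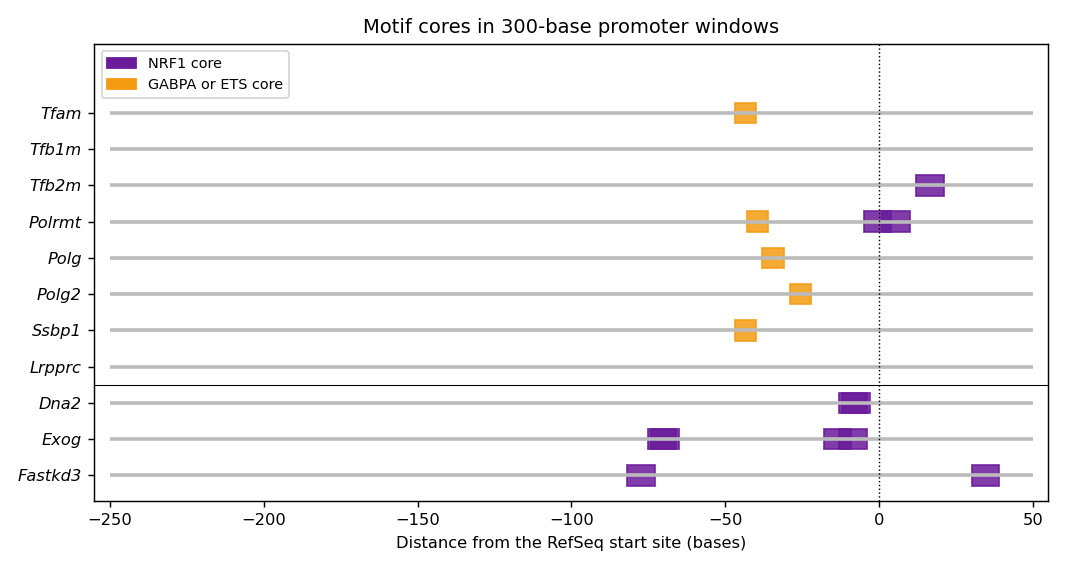
Position of the NRF1 core (purple) and the GABPA or ETS core (orange) in the 300-base promoter window of the 8 genes and, under the line, of 3 further genes described later. The x axis is the distance from the RefSeq start site in bases. The 5 ETS cores of the upper group sit just before the start site, and NRF1 cores appear there only in Tfb2m and Polrmt.

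The targeted gene was examined in every library first, but its whole-gene count cannot show the deletion of a single exon and so does not check the labels. Nrf1 had 9052 and 7789 reads in WT and 8594 and 8284 in Nrf1-CKO libraries, with a log2 fold change of -0.03 ± 0.07 (SE, edgeR adjusted p = 0.794). All 10 markers of retinal progenitors, the main cells of this tissue at this age, were detected, and 2 of them were called lower, with summed levels of 6129 and 6598 CPM in WT and 4484 and 4792 CPM in Nrf1-CKO libraries (CPM, counts scaled for library size). Markers of other cells also moved with genotype. Retinal ganglion cell markers were called lower in 8 of 8 cases and summed to 1476 and 1691 CPM in WT against 571.1 and 432.0 CPM in Nrf1-CKO libraries. Lens markers, 8 of 8 higher, summed to 123.8 and 350.9 CPM in WT and to 6982 and 2950 CPM in Nrf1-CKO libraries. Macrophage and microglia markers, also 8 of 8 higher, summed to 72.6 and 69.0 CPM in WT and to 223.7 and 274.6 CPM in Nrf1-CKO libraries. Pigment epithelium had 5 of 6 tested markers called higher and periocular mesenchyme 5 of 7. Endothelium had 4 of 6 called higher and 1 lower, erythroid cells 2 of 5 tested markers higher, and photoreceptor precursors 2 of 6 lower. In whole retinas, fewer cells of a type and less RNA per cell cannot be told apart, and the part of this cell makeup in the values that follow was not tested.

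To learn whether loss of Nrf1 altered these genes in the embryonic retina, the counts of all 15762 genes were fitted in edgeR and tested by quasi-likelihood, and p-values were adjusted over all genes by the Benjamini-Hochberg method. None of the 8 genes passed the test. With a call set at a change of at least 1.4-fold and an adjusted p of at most 0.2, 0 of 8 were lower and 0 of 8 were higher. Among all tested genes, 8.04% were called lower and 12.8% were called higher. At an adjusted p of at most 0.05 and any fold, again 0 of 8 passed, whereas 10.9% of all tested genes were lower and 11.9% were higher. By edgeR's unadjusted p, 0 of 8 genes were below 0.05, and DESeq2 also called 0. The count was 0 as well when marker genes of other tissues were kept out of the scaling. Log2 fold changes of the 8 genes, Nrf1-CKO minus WT, ran from -0.11 to 0.31 with a median of 0.02. The median over all tested genes was 0.00, to 2 decimals. Values for 7 of the 8 genes overlapped between the genotypes, and only Polg2 did not overlap. The genotypes did not overlap for 62.5% of all tested genes.

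**Figure D2:**
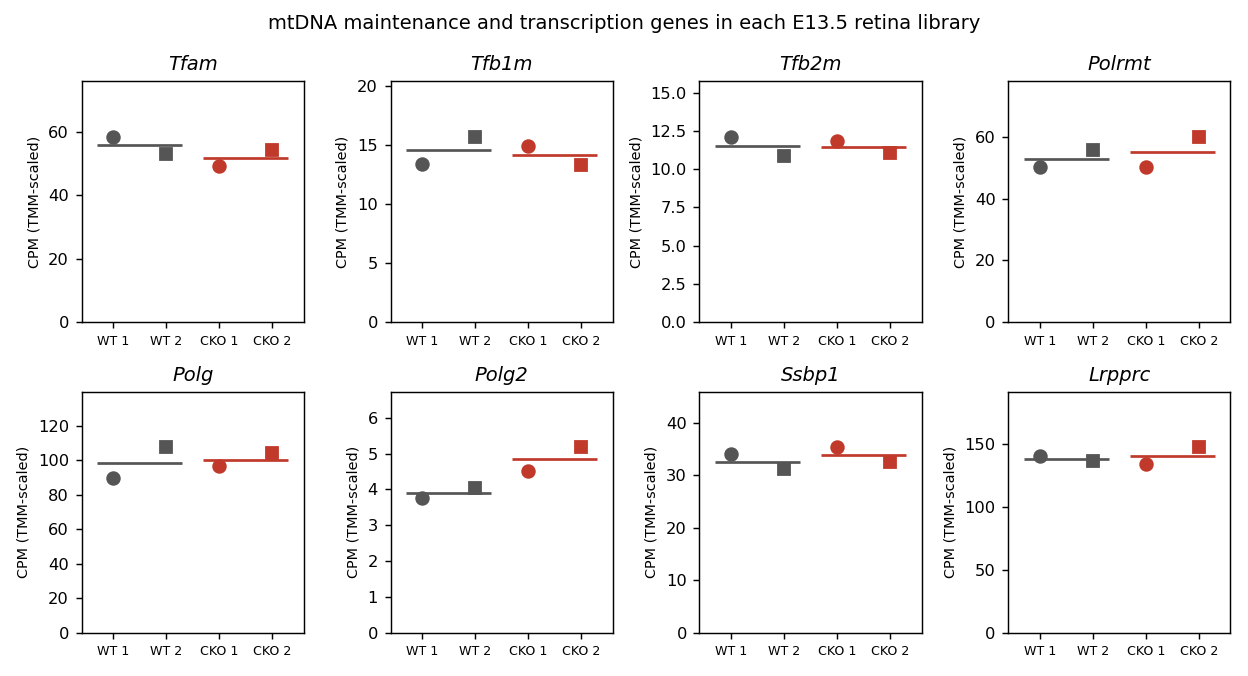
Level of each gene (CPM, scaled for library size with TMM factors) in each library, with lines at the mean of each genotype (n = 2). The y axes start at 0 and differ between genes. In every panel but that of Polg2, the red points of the Nrf1-CKO libraries overlap in range with the grey points of the WT libraries.

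Tfam, the DNA-packaging protein and transcription factor, had 5115 and 3920 reads in the WT libraries and 4074 and 4490 in the Nrf1-CKO libraries. After scaling for library size with TMM factors, as counts per unit of depth (CPM), these were 58.4 and 52.9 CPM in WT and 49.0 and 54.3 CPM in Nrf1-CKO retinas. The lower WT library thus lay below the higher Nrf1-CKO library. Tfam had the most negative difference of the 8 genes, with a log2 fold change of -0.11 ± 0.09 (SE, edgeR adjusted p = 0.440). Its level in Nrf1-CKO retinas was estimated at 92.8% of WT, with a 95% interval from 80.8% to 106.7%. A fall of 1.4-fold therefore lay outside the interval.

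The related genes Tfb1m and Tfb2m descend from an RNA methyltransferase. Tfb1m methylates the small ribosomal RNA of mitochondria, and Tfb2m helps Polrmt open the promoter. Tfb1m had 13.4 and 15.7 CPM in WT and 14.9 and 13.3 CPM in Nrf1-CKO libraries. Tfb2m had 12.1 and 10.9 CPM in WT and 11.8 and 11.0 CPM in Nrf1-CKO libraries. For Tfb2m, both Nrf1-CKO values fell between the WT values. Log2 fold changes were -0.04 ± 0.13 (SE, edgeR adjusted p = 0.857) for Tfb1m and -0.01 ± 0.13 (SE, edgeR adjusted p = 0.970) for Tfb2m.

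Polrmt, the RNA polymerase that also makes primers for replication, had 50.2 and 55.7 CPM in WT and 50.4 and 60.1 CPM in Nrf1-CKO libraries. The first library of each genotype was nearly the same. Its log2 fold change was 0.06 ± 0.10 (SE, edgeR adjusted p = 0.720), and the 95% interval went from -0.17 to 0.29. The promoter of Polrmt is the one that held both cores.

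Among the replication genes, Polg, the catalytic subunit of the polymerase, had 89.7 and 107.5 CPM in WT and 96.5 and 104.0 CPM in Nrf1-CKO libraries. Both Nrf1-CKO values again lay between the WT values, and the log2 fold change was 0.02 ± 0.10 (SE, edgeR adjusted p = 0.895). Ssbp1, the single-strand binding protein, had 34.0 and 31.1 CPM in WT and 35.3 and 32.5 CPM in Nrf1-CKO libraries. Its log2 fold change was 0.06 ± 0.09 (SE, edgeR adjusted p = 0.714), with overlap between genotypes.

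Polg2, the accessory subunit that raises the processivity of Polg, was the gene with the fewest reads, 330 and 300 in WT and 376 and 428 in Nrf1-CKO libraries. These were 3.77 and 4.04 CPM in WT and 4.53 and 5.17 CPM in Nrf1-CKO retinas, so both Nrf1-CKO libraries were above both WT libraries. The log2 fold change was 0.31 ± 0.19 (SE), which did not pass the test (edgeR adjusted p = 0.286). The 95% interval ran from 92.1% to 167.3% of WT and held both no difference and a rise of 1.4-fold. Polg2 shares 132 bases of exon, 3.03% of its merged exons, with the opposite-strand gene Milr1. Milr1 had 13 and 20 reads in WT and 59 and 110 in Nrf1-CKO libraries, and its log2 fold change was 2.29 (edgeR adjusted p = 0.0236). The sources used here do not state whether counting used strand, and the part of Milr1 reads in the Polg2 value was not tested.

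Lrpprc, which binds mitochondrial messenger RNAs together with Slirp, had the most reads of the 8 genes. It had 139.7 and 135.8 CPM in WT and 133.5 and 147.0 CPM in Nrf1-CKO libraries, with the WT values between the Nrf1-CKO values. The log2 fold change was 0.03 ± 0.08 (SE, edgeR adjusted p = 0.859). For its partner Slirp the log2 fold change was -0.22, and this did not pass the test either (edgeR adjusted p = 0.146). Slirp had 43.1 and 41.1 CPM in WT and 33.3 and 38.9 CPM in Nrf1-CKO libraries, so both Nrf1-CKO values lay below both WT values. A lack of overlap was seen for 62.5% of all tested genes.

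**Figure D3:**
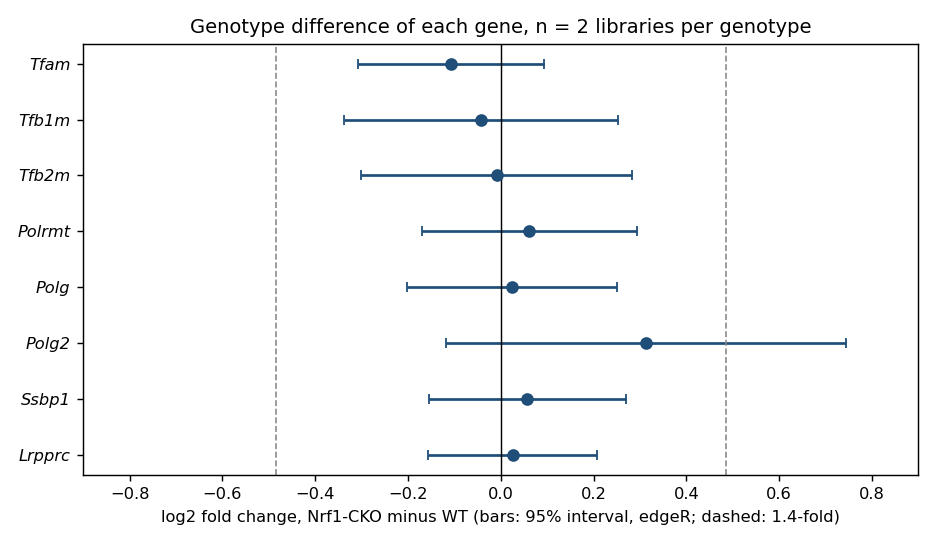
Log2 fold change, Nrf1-CKO minus WT, of each of the 8 genes, with 95% intervals from the edgeR fit (n = 2 libraries per genotype) and dashed lines at a 1.4-fold change in either direction. Every interval crosses 0, none reaches the line for a 1.4-fold decrease, and only that of Polg2 reaches the line for an increase.

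The intervals set how large a difference between these pools of whole retinas could have been missed. The difference within any single cell type was not measured. For each of the 8 genes a 1.4-fold decrease lay outside the 95% interval, and the lowest bound was -0.34, for Tfb1m. When the first WT library was left out, the lower bound of Tfb1m reached -0.50, past the 1.4-fold line. A 1.4-fold increase lay outside the interval of every gene except Polg2. The median standard error of the 8 genes was 0.10, against 0.12 over all tested genes. With 2 pools per genotype, these errors and p-values measure only the spread between the libraries.

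Levels can be compared between genes only per length. As CPM divided by the kilobases of merged exons (RPKM), the WT means were 16.2 ± 0.324 for Lrpprc, 12.5 ± 0.885 for Tfam, 11.3 ± 0.829 for Polrmt and 9.18 ± 1.17 for Polg (SD, n = 2). Lower levels were seen for Tfb2m at 4.10 ± 0.314, Tfb1m at 4.03 ± 0.455, Ssbp1 at 3.90 ± 0.243 and Polg2 at 0.897 ± 0.0449 RPKM (SD, n = 2). In this order the WT libraries of neighbours did not overlap, except that the values of Tfb2m, Tfb1m and Ssbp1 did. Tfam and Polrmt were separated only narrowly, with 11.91 RPKM in the lower WT library of Tfam and 11.88 RPKM in the higher one of Polrmt. The catalytic subunit Polg thus had the higher level per length and its partner Polg2 the lowest of the 8. Merged exons count bases of all annotated transcripts, and a second length, that of the longest principal transcript, was tried after seeing the data. By this length, Lrpprc stayed first at 31.4 RPKM and Polg2 last at 2.59 RPKM. Tfb1m moved from 4.03 to 10.4 RPKM and Ssbp1 from 3.90 to 7.41 RPKM, and both then stood above Tfb2m at 4.70 RPKM. Polrmt, at 14.09 ± 1.035 RPKM, then stood above Tfam, at 13.35 ± 0.943 RPKM (SD, n = 2), but by less than either SD. The order of the middle genes therefore depends on the length used.

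**Figure D4:**
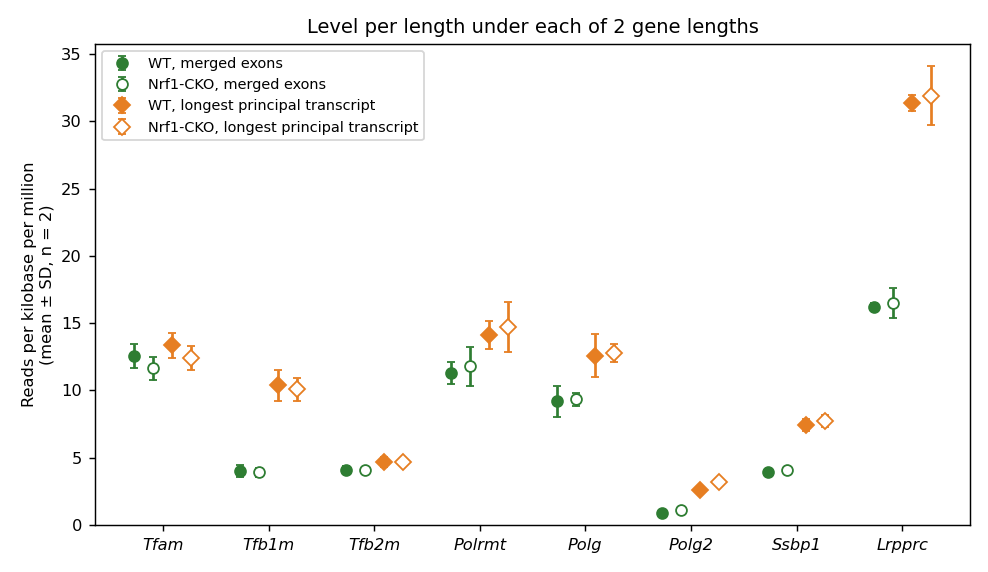
Level per length of each gene in WT (filled) and Nrf1-CKO (open) libraries, as mean ± SD over 2 libraries, by the length of merged exons (green circles) or of the longest principal transcript (orange diamonds). Lrpprc is highest and Polg2 lowest by both lengths. In WT, Tfb1m and Ssbp1 stand above Tfb2m only by the transcript length. The WT mean of Polrmt is above that of Tfam only by that length, with SD bars that overlap.

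The 8 genes are protein-coding genes on 6 chromosomes of GRCm38. Tfam (ENSMUSG00000003923.14) lies at chr10:71225464-71238280 and Polrmt (ENSMUSG00000020329.12) on the same chromosome at chr10:79736123-79746581. Tfb1m (ENSMUSG00000036983.7) and Lrpprc (ENSMUSG00000024120.12) are both on chromosome 17, at chr17:3519256-3557781 and chr17:84705247-84790789. Tfb2m (ENSMUSG00000026492.11) is at chr1:179528055-179546267, Polg (ENSMUSG00000039176.17) at chr7:79446231-79466362 and Polg2 (ENSMUSG00000020718.12) at chr11:106768253-106779537. All of these are on the minus strand, and Ssbp1 (ENSMUSG00000029911.14), at chr6:40471352-40484700, is on the plus strand. Besides Polg2, exons of Tfb1m overlap those of Tiam2 by 142 bases and exons of Polg overlap those of Fanci by 921 bases, in both cases on the opposite strand. Tiam2 had 150 and 119 reads in WT and 306 and 202 in Nrf1-CKO libraries, fewer in every library than Tfb1m, and was called higher, with a log2 fold change of 0.88 (edgeR adjusted p = 0.0621). The log2 fold change of Fanci was -0.21 (edgeR adjusted p = 0.198).

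To place the 8 genes among their partners, 63 other genes of the same processes, Nrf1 included, were taken from 6 lists. All 63 were tested. Of these, 4 were called lower and 2 higher, against 8.04% and 12.8% of all tested genes. At an adjusted p of at most 0.05 and any fold, 7 were lower and 3 higher, against 10.9% and 11.9% of all tested genes. The lower counts are thus near the background and the higher counts below it, and the genes that passed are described singly, not as a result about their lists. The median log2 fold change of the 63 genes was 0.01. Of the 10 genes past an adjusted p of 0.05, Dna2 and Ppargc1a passed it under every alternative tried, and the other 8 missed it under at least 1.

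Among 11 replication and repair partners, 2 were lower at an adjusted p of at most 0.05, against 10.9% of all tested genes. Dna2, a nuclease and helicase that trims DNA flaps, had 4559 and 3808 reads in WT and 3058 and 2690 in Nrf1-CKO libraries. Its level was 51.7 ± 0.507 CPM in WT and 34.7 ± 3.04 CPM in Nrf1-CKO retinas (SD, n = 2), and its log2 fold change was -0.58 ± 0.09 (SE, edgeR adjusted p = 0.00194). Exog, a mitochondrial exonuclease, fell from 27.04 ± 0.136 to 18.8 ± 2.71 CPM (SD, n = 2), a log2 fold change of -0.52 ± 0.12 (SE, edgeR adjusted p = 0.0131). Neither gene overlapped between genotypes, which also held for 62.5% of all tested genes. For Exog the adjusted p was 0.0657 without the first and 0.0824 without the second WT library, and its change fell short of 1.4-fold without the second Nrf1-CKO library, at -0.38, with upper-quartile scaling, at -0.48, and on the deposited normalized values, at -0.41. The helicase gene Twnk, listed under its older symbol Peo1, works directly with Polg at the fork and had a log2 fold change of 0.10 (edgeR adjusted p = 0.389). The median of the list was 0.04.

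In the list of 10 genes for nucleotide supply and mitochondrial DNA depletion, 2 were lower at an adjusted p of at most 0.05, where 10.9% of all tested genes were, and the median was -0.13. Rrm2b, the ribonucleotide reductase subunit used outside S phase, had 1292 and 1073 reads in WT and 879 and 742 in Nrf1-CKO libraries, a log2 fold change of -0.58 ± 0.13 (SE, edgeR adjusted p = 0.0129). Samhd1, which breaks down deoxynucleotides, had 2659 and 2202 reads in WT and 2035 and 1602 in Nrf1-CKO libraries. Its log2 fold change was -0.45 ± 0.12 (SE, edgeR adjusted p = 0.0282), a change smaller than 1.4-fold. It was -0.30 without the second Nrf1-CKO library and -0.63 without the first, where Samhd1 was called (edgeR adjusted p = 0.000877). Without the second WT library the adjusted p was 0.0641 for Rrm2b and 0.118 for Samhd1, without the first it was 0.0646 and 0.128, and without the second Nrf1-CKO library it was 0.107 for Samhd1, while Rrm2b fell short of 1.4-fold at -0.47. On the deposited normalized values Rrm2b was also short of 1.4-fold, at -0.40.

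Of 7 elongation and termination factors, 1 was called lower, against 8.04% of all tested genes. This was Mterf2, listed under its older symbol Mterfd3, a DNA-binding protein of the MTERF family, at 1928 and 1816 reads in WT and 1369 and 1305 in Nrf1-CKO libraries. Its log2 fold change was -0.53 ± 0.11 (SE, edgeR adjusted p = 0.00798). Its change fell short of 1.4-fold, and the call was lost, without the second WT library (log2 fold change -0.45, edgeR adjusted p = 0.0798) and on the deposited normalized values (-0.40). The elongation factor gene Tefm, a direct partner of Polrmt, had a log2 fold change of 0.02 (edgeR adjusted p = 0.944). Among 20 genes of mitochondrial RNA processing and stability, 0 were called and 2 were lower at an adjusted p of at most 0.05, where 10.9% of all tested genes were, with a list median of -0.02. These were Fastkd3, a protein of the FASTK family that acts on mitochondrial messenger RNAs, with a log2 fold change of -0.48 (edgeR adjusted p = 0.0240), and the poly(A) polymerase gene Mtpap, with a log2 fold change of -0.30 (edgeR adjusted p = 0.0330). Fastkd3, just short of 1.4-fold, was called with the replicate number as a block (log2 fold change -0.49, edgeR adjusted p = 0.00816), with scaling by library size only (-0.50), without the first Nrf1-CKO library (-0.64) and without the second WT library (-0.49). For Fastkd3 and Mtpap the adjusted p was 0.111 and 0.0960 without the first WT library, 0.104 and 0.215 without the second, and 0.0933 and 0.0802 without the second Nrf1-CKO library. None of 5 nucleoid genes passed by edgeR, and their log2 fold changes ran from -0.09 to 0.11. They include Lonp1, the protease that degrades free Tfam, at 0.11 (edgeR adjusted p = 0.427).

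In the list of 10 nuclear regulators, 2 were called higher and 3 were higher at an adjusted p of at most 0.05, against 12.8% and 11.9% of all tested genes. Ppargc1a, the coactivator PGC-1alpha, had 669 and 489 reads in WT and 1025 and 1031 in Nrf1-CKO libraries. It rose from 7.12 ± 0.740 to 12.4 ± 0.0872 CPM (SD, n = 2), a log2 fold change of 0.80 ± 0.14 (SE, edgeR adjusted p = 0.00355). Ppargc1b, its close relative, had 220 and 227 reads in WT and 477 and 420 in Nrf1-CKO libraries, a log2 fold change of 0.96 ± 0.21 (SE, edgeR adjusted p = 0.0103). Pprc1, the third coactivator of this family, rose by a smaller amount, with a log2 fold change of 0.36 ± 0.09 (SE, edgeR adjusted p = 0.0189). Without the first WT library the adjusted p of Ppargc1b was 0.0600, and without the second that of Pprc1 was 0.168. On the deposited normalized values the log2 differences of Ppargc1a and Ppargc1b were smaller, at 0.52 and 0.45, and the latter fell short of 1.4-fold, so that its call was lost. Gabpa, the DNA-binding subunit of GABP, had a log2 fold change of 0.03 (edgeR adjusted p = 0.842). Its partner Gabpb1 had a log2 fold change of -0.19 (edgeR adjusted p = 0.143).

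**Figure D5:**
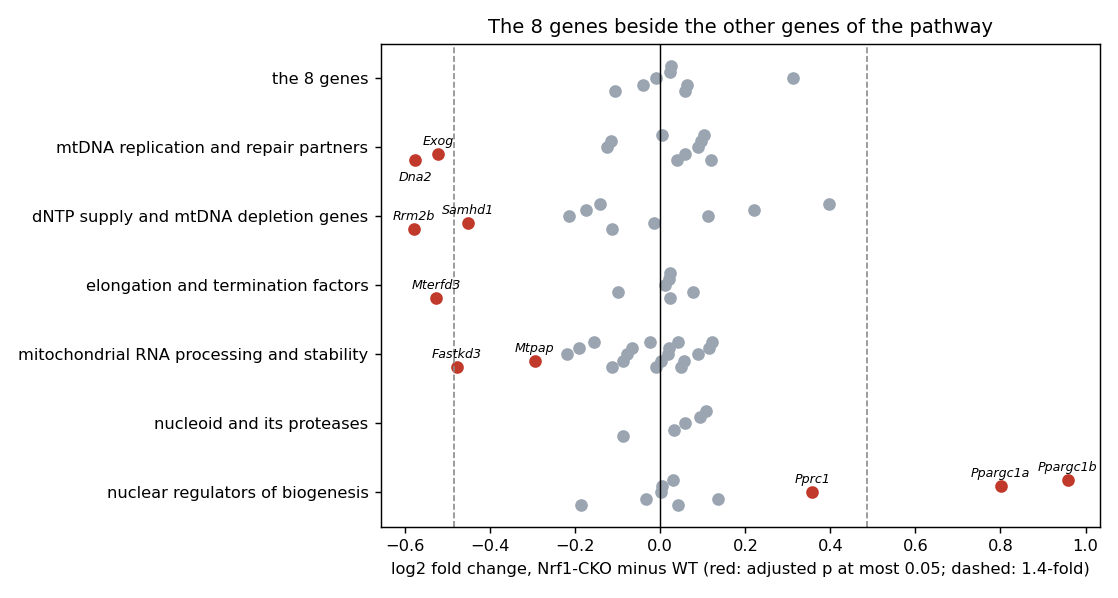
Log2 fold change, Nrf1-CKO minus WT, of the 8 genes (top line) and of 63 other genes in 6 lists, 1 point per gene. Red points passed an adjusted p of 0.05 in the edgeR fit and are named, and dashed lines mark a 1.4-fold change. The 8 genes lie near 0 with no red point, 7 genes of other lists are red on the left, and 3 coactivator genes are red on the right.

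Promoter windows of the same kind were available for 54 of the 62 list genes other than Nrf1. Rrm2b and Mtpap, which were lower, and Ppargc1b, which was higher, had no window and are not in the counts that follow. Of the 54, 8 held an NRF1 core. At an adjusted p of at most 0.05, 3 of the 8 (Dna2, Exog and Fastkd3) were lower and 0 were higher, where 10.9% of all tested genes were lower and 11.9% were higher. The other 5 passed in neither direction, with log2 fold changes of -0.07 for Supv3l1, -0.19 for Grsf1, -0.09 for Clpx, 0.03 for Phb and 0.00 for Esrra. The share among all genes that hold the core was not computed. Among 46 windows without an NRF1 core, 2 genes were lower and 2 were higher, and among 16 windows with an ETS core, 0 were lower and 0 were higher by edgeR. The difference between these shares was not tested. The 3 promoters with an NRF1 core whose genes were lower are shown for comparison with those of Tfb2m and Polrmt, with NRF1 cores in capitals, at chr10:62946779-62947078 (plus strand) for Dna2, chr9:119444710-119445009 (plus strand) for Exog and chr13:68581960-68582259 (plus strand) for Fastkd3.
Dna2: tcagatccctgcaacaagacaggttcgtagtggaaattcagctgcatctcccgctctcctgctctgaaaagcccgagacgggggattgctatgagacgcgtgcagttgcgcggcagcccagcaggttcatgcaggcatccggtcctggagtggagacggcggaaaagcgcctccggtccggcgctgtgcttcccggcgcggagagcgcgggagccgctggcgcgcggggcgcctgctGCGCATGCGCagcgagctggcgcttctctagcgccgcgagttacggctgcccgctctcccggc
Exog: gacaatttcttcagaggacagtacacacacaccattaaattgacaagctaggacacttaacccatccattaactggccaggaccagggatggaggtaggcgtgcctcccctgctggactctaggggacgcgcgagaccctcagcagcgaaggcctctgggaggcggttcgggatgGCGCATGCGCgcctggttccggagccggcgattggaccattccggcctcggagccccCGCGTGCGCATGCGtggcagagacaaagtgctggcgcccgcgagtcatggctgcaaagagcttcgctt
Fastkd3: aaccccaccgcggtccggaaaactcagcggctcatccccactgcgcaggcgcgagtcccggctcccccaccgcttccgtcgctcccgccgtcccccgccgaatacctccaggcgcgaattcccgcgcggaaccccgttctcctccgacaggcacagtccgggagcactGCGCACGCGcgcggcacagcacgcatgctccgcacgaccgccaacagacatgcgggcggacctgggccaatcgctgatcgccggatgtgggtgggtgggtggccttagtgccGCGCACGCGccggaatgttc
In Dna2 the capitals mark 1 palindromic stretch that reads as an NRF1 core on both strands and begins at position -13. Exog held such a stretch at position -75 and a second block at position -18, in which 2 cores overlap. Fastkd3 held separate cores at positions -82 and 31. These genes were picked for being lower. The other 5 list genes with the core are those left by the same cut, so their narrower range, -0.19 to 0.03, follows in part from it. Over all 8 list genes with the core, log2 fold changes ran from -0.58 to 0.03. Tfb2m and Polrmt, at -0.01 and 0.06, lay in the upper part of this range or just above it.

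The genes most like Tfam were sought by their pattern over the 4 libraries, as the distance between deviations in log2 CPM from each gene's own mean, among 11326 genes with a mean of at least 5 CPM. The nearest were Lrrc57, BC004004, Ttpal, Pdap1 and Helb, at distances from 0.0137 to 0.0191 log2 units. The pattern was common, since 422 genes lay within 0.1 log2 units of Tfam. None of the nearest 5 was among the other 7 genes described here.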

How the data were processed

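Total RNA of E13.5 retinas was sequenced on an Illumina instrument from 2 WT and 2 Nrf1-CKO pools. The authors aligned reads to mm10 with TopHat2 and deposited raw HTSeq counts per gene without normalization, together with normalized values that the deposited table holds on a log2 scale and whose making is not given in the sources used here. The submitters' processing notes also list DESeq and limma. The annotation release and the strand setting are not given in the sources used here. In both tables the header is shifted against the values, and columns were read in the order in which the header names the libraries. HTSeq's summary rows held 74.0% to 75.0% of all counts of a library and were left out of library sizes and tests. Alignments that were not unique made up 54.6% to 58.0% of all counts. Those on no annotated feature made up 16.7% to 19.7%, with the highest share in the first Nrf1-CKO library. Genes encoded in mitochondrial DNA itself were not analysed here.

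Counts were filtered with edgeR's filterByExpr (minimum count 10), scaled with TMM and fitted by genotype in edgeR 4.0.16 (R 4.3.3), with a quasi-likelihood F-test and Benjamini-Hochberg adjustment over 15762 genes. Calls needed a 1.4-fold change and an adjusted p no higher than 0.2, and genes with an adjusted p no higher than 0.05 were counted at any fold. Standard errors (SE) and 95% intervals were derived from the F statistic of each gene. The test was tested on simulated data. Named are the 8 genes, Nrf1, list genes that passed either threshold, and the 5 genes nearest to Tfam. Slirp, Twnk, Tefm, Lonp1, Gabpa, Gabpb1, the genes whose exons overlap and those with an NRF1 core were named in addition, after their values were seen. Gene positions, exons and lengths come from GENCODE for GRCm38 and promoters from RefSeq. The genes, lists and tests were chosen with earlier results of these data known. Whether same-numbered libraries shared litters or a batch is not stated in the sources used here. The correlation of deviations between same-numbered libraries was -0.0025, which cannot show that they were unpaired. Alternatives were DESeq2 1.42.0, limma 3.58.1 on the deposited log2 values, other scalings and filters, a replicate block, and each library left out in turn. Intervals reflect only counting noise and variation between these libraries.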

Additional observations from a re-analysis of the deposited data

How the results depend on the processing

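Under all 13 alternatives, 0 of the 8 genes were called and 0 passed an adjusted p of 0.05. Their median log2 fold change was 0.0246. It was 0.00534 when scaled by library size only, 0.0642 with upper-quartile scaling, and 0.0021 to 0.0449 when each library was left out. Of 104 values of single genes under the alternatives, 12 changed sign, none with a call. Upper-quartile scaling gave 0.0304 for Tfb2m and 0.00596 for Nrf1. When each library was left out, Tfb1m ran from -0.15 to 0.0809, Tfb2m from -0.0815 to 0.0751, Polrmt from -0.0733 to 0.184, Polg from -0.0968 to 0.163, Ssbp1 from -0.00201 to 0.126 and Lrpprc from -0.0475 to 0.0938. Tfam and Polg2 kept their sign under all 13. The cause was not tested. Over all genes, limma on the deposited log2 values called 723 lower and 945 higher, and in the lists 1 lower and 1 higher. When each library was left out, genes past an adjusted p of 0.05 numbered 813 to 1797 lower and 1079 to 1717 higher, and those called 1071 to 1402 lower and 1703 to 1856 higher. In the lists, 1 to 7 genes were lower and 2 to 3 higher at an adjusted p of 0.05, and 2 to 6 were called lower and 2 higher. Dna2 and Ppargc1a passed an adjusted p of 0.05 under every alternative. The other 8 list genes lost an adjusted p of 0.05 when a WT library was left out, Samhd1, Fastkd3 and Mtpap also without the second Nrf1-CKO library, and Mtpap also with upper-quartile scaling, at 0.0574. With the replicate number as a block, the lowest adjusted p of the 8 genes was 0.316, for Polg2, and the replicate block called 5 list genes lower, since Fastkd3 moved from -0.479 to -0.486, just past 1.4-fold. It changed no other call among the 8 genes, Nrf1 and the 10 list genes past an adjusted p of 0.05. Scaling by library size only also called 5 lower, Fastkd3 included. The value of Polg2, the gene with the fewest reads of the 8, ran from 0.15 on the deposited values to 0.41 without the first Nrf1-CKO library.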
